A study of Homo sapiens with 4 samples.

Results

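The genes described here are 6 inflammatory signalling genes found by symbol in the list of differentially expressed coding genes that the authors deposited, which holds 742 symbols in all. They are the cytokine gene IL1B, the chemokine genes CXCL1, CXCL10, CCL3 and PPBP, and the chemokine receptor gene CCR4. All were chosen because the table lists them, so their values are a description and carry no test. The study compared K562 cells, an established human line from chronic myelogenous leukaemia, transfected either with a scramble control siRNA or with HMRHL siRNA, which targets a long non-coding RNA. Total RNA was taken 36 hours after transfection, with 2 libraries in each of the 2 groups and 4 in all, and no label says whether these were separate cultures. Each listed gene has 1 fold change, made by the authors from both groups together, with no value per library, error, p-value or depth. Values were read as log2 and as knockdown over scramble, neither of which the table states.

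Inflammatory cytokines and chemokines are secreted proteins through which cells alert and recruit leukocytes. Interleukin 1 beta, the product of IL1B, is made as an inactive precursor, is cut by caspase-1 and acts through a receptor that switches on NF-kappaB. Chemokines are small secreted proteins, sorted into the CXC and CC families by the spacing of their first cysteines, and they attract cells that carry matching G protein-coupled receptors. CXCL1 and the processed product of PPBP attract neutrophils through CXCR2, CXCL10 attracts activated T cells through CXCR3 and is induced by interferon, and CCL3 attracts monocytes and other leukocytes through receptors that include CCR1. CCR4 is the receptor for CCL17 and CCL22 and is known from helper and regulatory T cells. PPBP is also a classic gene of megakaryocytes, which store its product in platelet granules.

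The 6 genes were divided evenly between the directions: PPBP, CCR4 and CXCL1 were listed as higher after the HMRHL siRNA and IL1B, CXCL10 and CCL3 as lower. IL1B, the only member of the IL-1 family in the authors' deposited table, had the value of largest size, at -3.97, which as log2 is 15.7-fold lower. The platelet chemokine gene PPBP stood at 3.89 in the authors' deposited table, or 14.9-fold higher. The receptor gene CCR4 stood close to it at 3.77 in the authors' deposited table, or 13.6-fold higher. The remaining chemokine genes had smaller values.

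The neutrophil chemokine gene CXCL1 was at 2.36 in the authors' deposited table, or 5.13-fold higher. The interferon-induced chemokine gene CXCL10 was at -2.28 in the authors' deposited table, or 4.85-fold lower. CCL3 was nearest to 0 at -1.71 in the authors' deposited table, or 3.28-fold lower. Of the 6 genes, 3 were higher and 3 lower, beside 30.6% higher and 69.4% lower of all 742 listed symbols, and 5 were at least 4-fold changed beside 39.6% of all listed symbols. Of all 19936 annotated protein-coding symbols, 1.13% were listed as higher and 2.57% as lower. Were the fold changes scramble over knockdown, all signs would turn and 69.4% of listed symbols would be higher and 30.6% lower. Were they signed linear folds, 0 of the 6 genes would reach 4-fold. Because the table itself chose the members, nothing is read from these shares. The median over the 6 genes was 0.32 in the authors' deposited table, lying between opposed values, and the median over all listed symbols was -1.44.

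**Figure D1:**
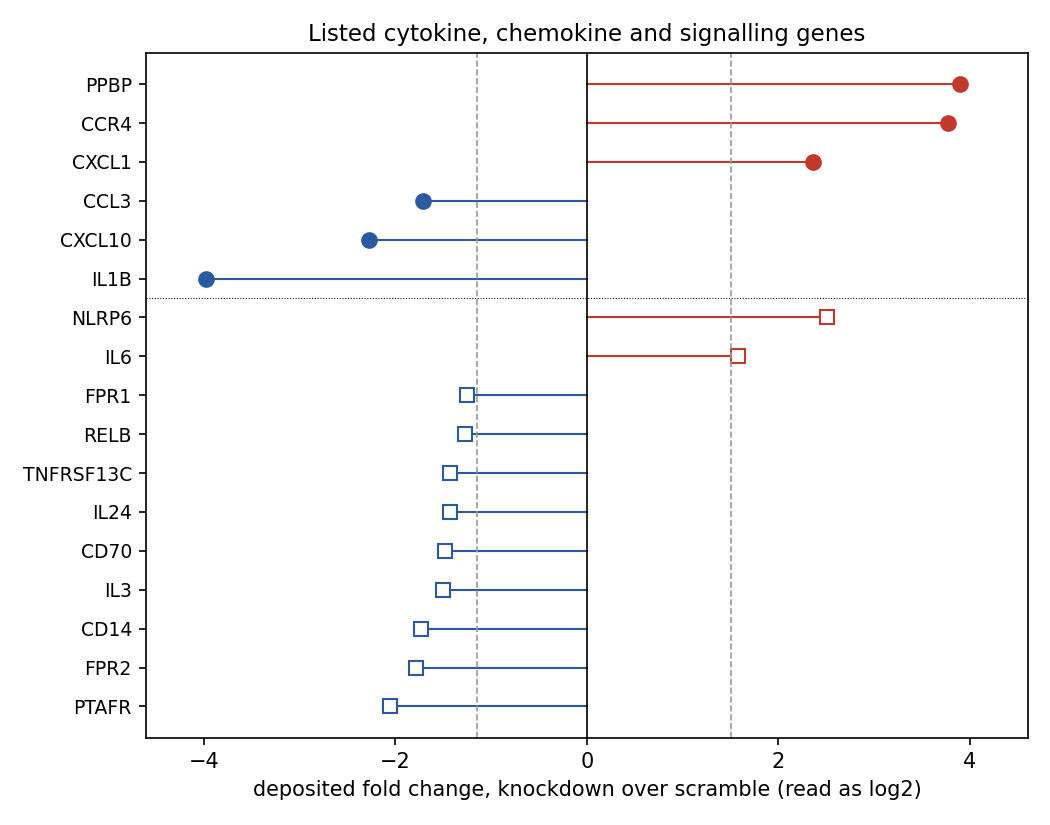
Deposited fold change (horizontal axis, read as log2, knockdown over scramble) of the 6 genes (filled circles) and the 11 other listed genes of the wider lists (open squares); red is higher, blue lower, and dashed lines mark the listed values nearest to 0 on each side. PPBP (3.89) and IL1B (-3.97) stand farthest from 0, and no error can be drawn because there is 1 value per gene.

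Within the whole list the 6 genes lay in different places. IL1B ranked 11 among the 515 lower symbols, next to NRIP2 at -4.06 and the ceramide synthase gene CERS1 at -3.97 in the authors' deposited table. PPBP ranked 12 and CCR4 14 among the 227 higher symbols. Between them stood TFEC, a transcription factor gene of the MITF family, at 3.86 in the authors' deposited table. The other 3 genes were less extreme.

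CXCL1 ranked 73 of 227, between OTOF and EPHA5, both at 2.36 in the authors' deposited table. CXCL10 ranked 129 of 515, between VSTM5 at -2.28 and WDR38 at -2.27 in the authors' deposited table. CCL3 ranked 261 of 515, beside ZNF471 at -1.71 and the calcitonin receptor gene CALCR at -1.70 in the authors' deposited table, and so stood in the middle of the lower genes. The listed values nearest to 0 were 1.50 and -1.15 in the authors' deposited table, and no member lay at either edge. Lower genes were thus listed nearer to 0 than higher ones, and every share of lower genes given here includes such values. With no error per value, no difference between close neighbours such as PPBP and CCR4 can be judged. With 1 value per gene, no gene could be named for a pattern across samples like that of any of the 6.

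**Figure D2:**
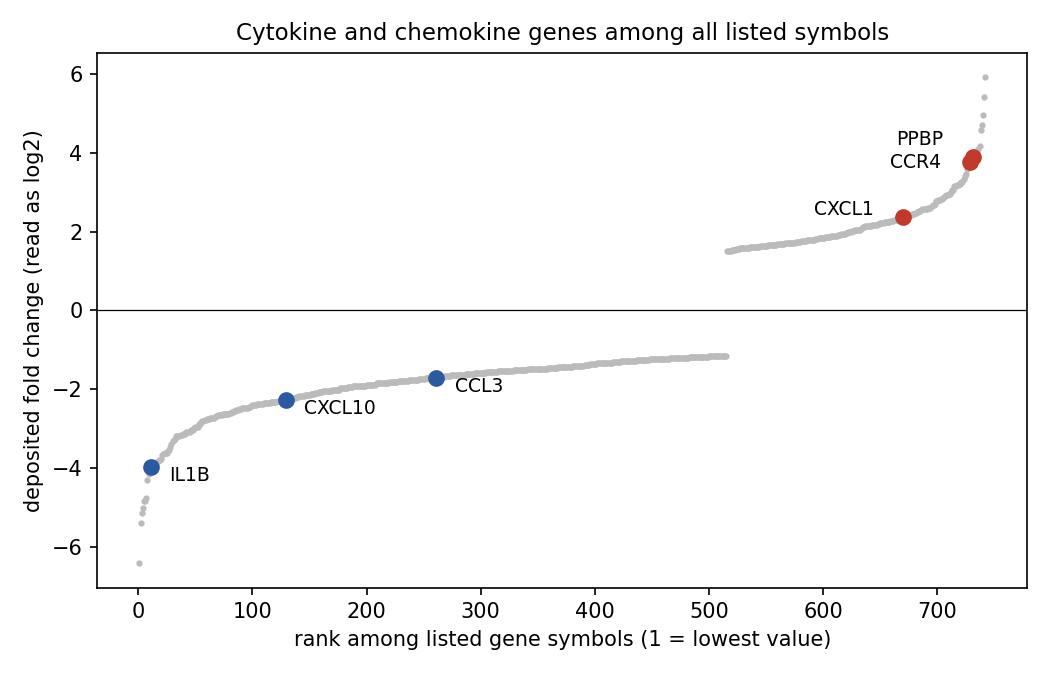
Deposited fold change (vertical axis, read as log2) against rank (horizontal axis) for all 742 listed symbols in grey, with the 6 genes in red (higher) or blue (lower). IL1B, PPBP and CCR4 lie in the steep ends of the curve, while CXCL1, CXCL10 and CCL3 lie on its flat parts; the gap around 0 holds genes that are not listed.

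The ligands and receptors that pair with these genes were looked up in the same list. For IL1B these were the receptor genes IL1R1, IL1R2 and IL1RAP, the antagonist gene IL1RN and the processing protease gene CASP1. For the chemokines they were the receptor genes CXCR1, CXCR2, CXCR3 and CCR1, and for CCR4 the ligand genes CCL17 and CCL22. Of these 11 partner genes, 0 were listed. A gene that is not listed was not selected by the authors, which leaves its expression and any smaller change unknown. Of all annotated protein-coding symbols 3.71% were listed, so a set of 11 without a listed gene is not read as a result.

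The wider lists of cytokines, chemokines, their receptors and the signalling genes around them held 332 annotated genes, of which 5 were listed as higher and 12 as lower. Without the 6 genes above, 2 were higher and 9 lower, or 3.37% of 326 annotated genes, near the 3.71% of all annotated protein-coding symbols. The median of the 11 other genes was -1.43 in the authors' deposited table, beside -1.44 for all listed symbols. Chemokines and their receptors contributed no further gene among those counted here: of 17 CXC chemokines 3 were listed, of 29 annotated CC, C and CX3C chemokines 1, and of 22 chemokine receptors 1, all of them described above.

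Of the cytokines beyond these families, IL6, an inflammatory cytokine gene that interleukin 1 is known to induce, was at 1.58 in the authors' deposited table, in the opposite direction to IL1B. IL3, a haematopoietic growth factor gene, and IL24, an IL-10 family cytokine gene, were at -1.51 and -1.43 in the authors' deposited table. These were the 3 listed of the 76 other interleukin and receptor genes counted, or 3.95%, near the 3.71% of all annotated protein-coding symbols. Of 47 genes of the TNF superfamily 4.26% were listed, also near that share. The ligand gene CD70 was at -1.48 and TNFRSF13C, which encodes the BAFF receptor of B cells, at -1.43 in the authors' deposited table.

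Among signalling genes, the inflammasome list had NLRP6, a sensor of the NOD-like receptor family, at 2.50 in the authors' deposited table, as the 1 listed of 17. The NF-kappaB and Toll-like receptor list had 2 of 43. RELB, a subunit of NF-kappaB, was at -1.27 and CD14, the co-receptor for lipopolysaccharide, at -1.73 in the authors' deposited table. Of 42 interferon response genes CXCL10 was the 1 listed. CXCL9 and CXCL11, which share its receptor, were not. Of 20 receptors for chemoattractants and lipid mediators, 3 were listed and all were lower, where 69.4% of all listed symbols were lower and 3.71% of annotated ones were listed. The platelet-activating factor receptor gene PTAFR was at -2.06, and the formyl peptide receptor genes FPR2 and FPR1 were at -1.78 and -1.25 in the authors' deposited table. FPR1 and RELB are smaller in size than 1.50, the smallest higher value listed.

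Marker genes of cell types in which the 6 genes are usually studied were also looked up, beside the 3.71% of all annotated protein-coding symbols that were listed and the 69.4% of listed symbols that were lower. Of 18 monocyte and macrophage markers 4 were listed, all lower: CLEC7A at -1.27, CD14 at -1.73 and the Fc receptor genes FCER1G and FCGR1A both at -1.82 in the authors' deposited table. Of 23 megakaryocyte and platelet genes 3 were listed, and PPBP was the only higher one, while the authors' deposited table gave ITGA2 at -1.28 and GP1BA at -1.96. PF4, which lies beside PPBP and is stored with it in platelet granules, was not listed. Of 17 T cell markers 3 were listed and pointed both ways, with ZAP70 at 2.69, CD247 at -1.48 and CD5 at -2.74 in the authors' deposited table beside CCR4 at 3.77. CLEC7A, ITGA2 and CD247 are smaller in size than 1.50, the smallest higher value listed. Of 29 erythroid markers, which K562 cells are known to express in part, 0 were listed. The part of these marker genes in the values of the 6 was not tested. In bulk RNA, fewer cells of a type and less RNA per cell cannot be told apart, and with no levels per library the identity of the cells could not be checked.

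On the genome, 3 of the 6 genes lie on chromosome 4, in both of its CXC chemokine clusters. Positions are those of GENCODE release 29 on GRCh38. CXCL1 spans bases 73869393 to 73871242 on the plus strand and PPBP 73987038 to 73988197 on the minus strand, 115.8 kb apart with 1 coding gene, PF4, between them. Their cluster runs from CXCL8 to CXCL2 and holds 9 coding genes, of which CXCL1 and PPBP were the 2 listed, both as higher. Both were chosen because they were listed, so this count is not read as a result. Of all annotated protein-coding symbols 3.71% were listed. CXCL8, CXCL6, PF4V1, PF4, CXCL5, CXCL3 and CXCL2 were not listed. The listed genes are therefore not neighbours within the cluster.

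CXCL10 lies 2032.9 kb beyond PPBP, from 76021117 to 76023497 on the minus strand, in the cluster with CXCL9 and CXCL11. It lies inside ART3, an ADP-ribosyltransferase family gene on the opposite strand from 76011184 to 76112802, although no annotated exon of ART3 overlaps one of CXCL10. ART3 was listed too, at -3.57 in the authors' deposited table, in the same direction as CXCL10 at -2.28. The library kit was a stranded one, but no source used here tells whether reads were assigned by strand, and the part of ART3 in the value of CXCL10 was not tested. Of the 19 coding genes that lie wholly between PPBP and CXCL10, 0 were listed, beside 3.71% of all annotated protein-coding symbols. This count is not read as a result.

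**Figure D3:**
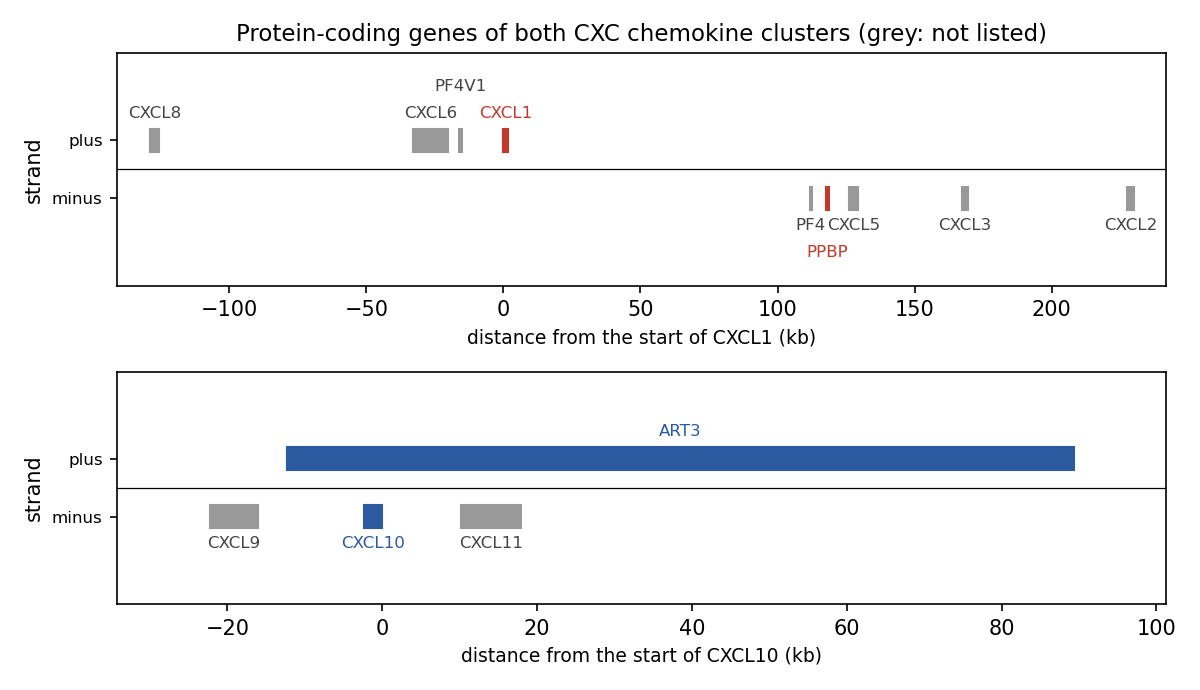
Protein-coding genes of the CXC cluster with CXCL1 and PPBP (top) and of that with CXCL10 (bottom), drawn to scale by strand against the distance from the start of CXCL1 or CXCL10 in kb; red boxes were listed as higher, blue as lower, and grey boxes were not listed. CXCL1 and PPBP are the 2 listed of 9 genes at the top, and both were chosen because they were listed. CXCL10 lies within the span of ART3 at the bottom.

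The other 3 genes lie on separate chromosomes. On chromosome 2, IL1B occupies bases 112829751 to 112836903 of the minus strand, and of the 9 coding genes of its cluster, from IL1A to IL1RN, it was the only one listed. On chromosome 3, CCR4 occupies bases 32951574 to 32956349 of the plus strand. On chromosome 17, CCL3 occupies bases 36088256 to 36090169 of the minus strand and was the only one listed of 11 coding genes from CCL16 to CCL4L2. Since IL1B and CCL3 were chosen as listed genes, these counts are not read as results. Of all annotated protein-coding symbols 3.71% were listed. CCL3 filled 3 rows of the authors' deposited table with the same value, one of 37 symbols that were repeated in this way.

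The value of CCL3 is uncertain in origin. Its transcript of 778 bases is matched over its whole length at 95.7% identity by CCL3L1, a nearby copy that was not listed, and exons of the antisense gene AC243829.4 overlap its exons on the opposite strand. CXCL1 is matched over 98.5% of its transcript by CXCL2 at 88.4% identity, and PPBP over 52.2% by the pseudogene PPBPP1 at 82.9% identity. CCR4 is matched over 31.6% of its transcript by the coding gene AC010422.8 at 79.1% identity, and over smaller parts by other coding genes. CXCL2 and AC010422.8 were not listed. Neither were PPBPP1 and AC243829.4, which are not annotated as protein-coding, in what is a list of coding genes. No source used here tells how the authors' counting treated shared reads or, although the kit was stranded, the strand.

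The promoters of the 3 CXC chemokine genes of chromosome 4 are shown because 2 of these genes were listed as higher and 1 as lower. Each window runs from 250 bases before to 50 bases after the RefSeq start (GRCh38.p14), 5′ to 3′ on the strand of the gene. Capitals mark matches, on either strand, to the NF-kappaB consensus, to an interferon response pattern (TTTC, any 2 bases, TTTC), to the TATA pattern TATAAA and to the GATA factor pattern AGATAA.
CXCL1 promoter, chr4:73869143-73869442, plus strand: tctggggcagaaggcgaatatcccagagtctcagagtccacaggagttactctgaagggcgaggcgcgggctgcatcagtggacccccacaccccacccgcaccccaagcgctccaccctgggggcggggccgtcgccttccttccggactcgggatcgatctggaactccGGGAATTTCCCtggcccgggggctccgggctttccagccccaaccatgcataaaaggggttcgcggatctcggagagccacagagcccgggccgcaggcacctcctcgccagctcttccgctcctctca
PPBP promoter, chr4:73988141-73988440, minus strand: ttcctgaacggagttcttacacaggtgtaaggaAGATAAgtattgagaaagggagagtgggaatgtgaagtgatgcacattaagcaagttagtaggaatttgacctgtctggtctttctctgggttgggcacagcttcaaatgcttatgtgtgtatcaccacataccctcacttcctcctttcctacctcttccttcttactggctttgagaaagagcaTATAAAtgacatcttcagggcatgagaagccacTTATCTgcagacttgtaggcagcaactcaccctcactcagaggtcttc
CXCL10 promoter, chr4:76023448-76023747, minus strand: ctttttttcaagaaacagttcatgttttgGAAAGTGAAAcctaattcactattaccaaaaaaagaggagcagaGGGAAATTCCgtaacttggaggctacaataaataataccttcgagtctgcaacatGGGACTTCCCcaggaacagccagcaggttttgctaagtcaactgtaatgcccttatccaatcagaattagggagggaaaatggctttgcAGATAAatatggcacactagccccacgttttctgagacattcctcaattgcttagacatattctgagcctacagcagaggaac

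The windows of CXCL1 and CXCL10, listed in opposite directions, both matched the NF-kappaB consensus. It is held by 11.3% of all 35116 promoter windows and by 14.3% of the 841 windows of listed genes. In CXCL1 the match was GGGAATTTCC from position -79 to -70 relative to the start, overlapping a match on the other strand shifted by 1 base. In CXCL10 the matches were GGGAAATTCC from -177 to -168 and GGGACTTCCC from -122 to -113. CXCL10 alone of the 6 also held the interferon response pattern, from -221 to -212 on the opposite strand, a pattern found in 3.57% of all windows. A looser pattern, GGG and CC with any 5 bases between them, takes in every match to the consensus and so had to occur in these genes. No other window of the 6 genes held it, although 58.7% of all windows and 65.0% of those of listed genes do.

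The TATA pattern stood at -31 to -26 in PPBP and at -29 to -24 in CCL3, and in 11.5% of all windows. AGATAA, which blood GATA factors are known to bind, was present in PPBP at -217 to -212 and, on the opposite strand, at 3 to 8. It was also present once in the windows of IL1B, CXCL10 and CCR4, beside 10.3% of all windows. The AP-1 pattern TGANTCA, held by 7.71% of all windows, was in none of the 6. The CXCL1 window was 66.3% G and C, and the others were between 41.3% and 48.7%. A match describes these letters only and is neither a binding site nor a cause of a value.

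**Figure D4:**
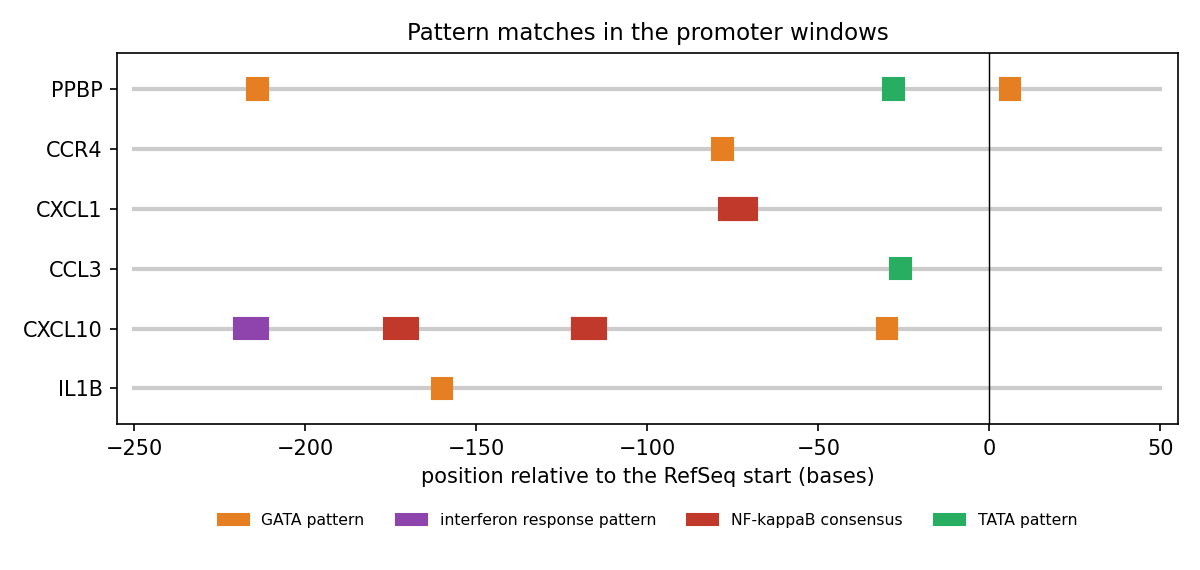
Matches to 4 patterns (coloured boxes, on either strand) along the promoter windows of the 6 genes, ordered by deposited fold change with the highest at the top; the horizontal axis is the position in bases relative to the RefSeq start (vertical line). Matches to the NF-kappaB consensus are seen in CXCL1 and CXCL10 and the interferon response pattern in CXCL10.

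Inflammatory messenger RNAs are often short-lived because AU-rich elements, built from repeats of ATTTA in the DNA alphabet, lie in their 3′ untranslated regions. The 6 genes differed widely in this feature. IL1B held 6 pentamers in 610 bases, or 9.84 per kb, more than 98.7% of 12138 annotated genes with at least 100 bases of 3′ UTR. CCL3 held 4 in 416 bases, or 9.62 per kb, and CXCL1 held 5 in 706 bases, or 7.08 per kb, more than 98.6% and 96.1% of these genes. PPBP held 1 in 234 bases, or 4.27 per kb, CCR4 4 in 1844 bases, or 2.17 per kb, and CXCL10 1 in 813 bases, or 1.23 per kb, beside a median of 1.60 per kb over all these genes and 1.10 per kb over the 425 of them that were listed.

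The densest 30 bases of the 3 pentamer-rich genes are shown because the same repeat occurs in genes listed in opposite directions. Each stretch is from GENCODE release 29 on GRCh38, 5′ to 3′ on the strand of the gene, with each ATTTA in capitals.
IL1B 3′ UTR, chr2:112829994-112830023, minus strand: gcttccctATTTATTTATTTAtttgtttgt
CXCL1 3′ UTR, chr4:73870674-73870703, plus strand: agtcttctATTTATTTATTTAttcattagt
CCL3 3′ UTR, chr17:36088486-36088515, minus strand: attttaATTTATTTAtactATTTAgttttt

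IL1B, at -3.97, and CXCL1, at 2.36 in the authors' deposited table, both carried 3 overlapping pentamers in 1 run. CCL3, at -1.71 in the authors' deposited table, carried 2 overlapping pentamers and 1 apart. The longer element TTATTTATT occurred 2 times in IL1B, 3 times in CXCL1 and once in CCR4, and in 8.2% of all these genes. The higher members ranged from 2.17 to 7.08 pentamers per kb and the lower ones from 1.23 to 9.84, so the ranges overlapped.

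**Figure D5:**
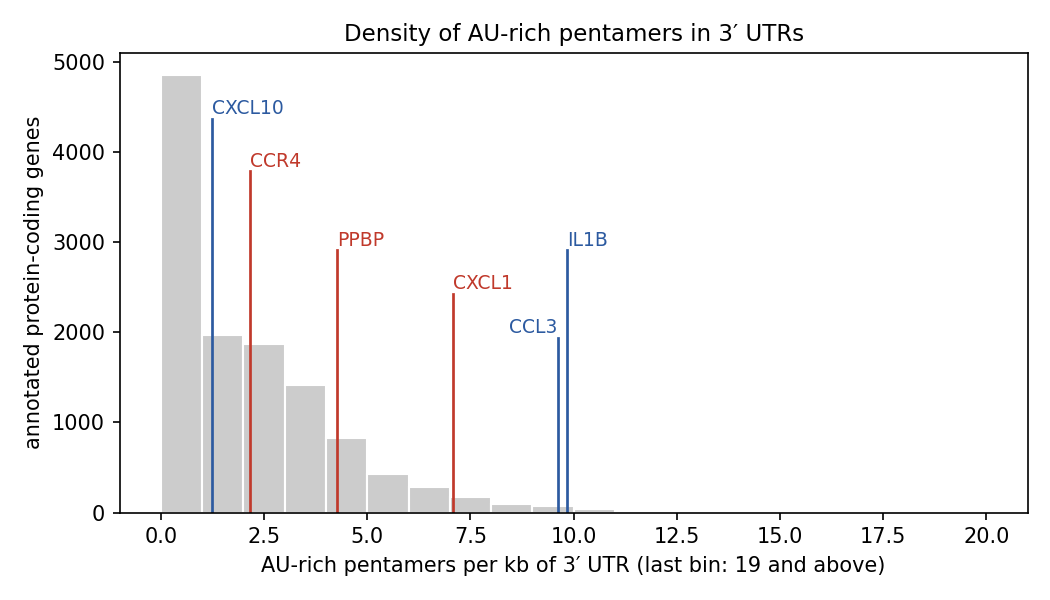
Number of annotated protein-coding genes (vertical axis, grey bars) by AU-rich pentamers per kb of 3′ UTR (horizontal axis), with lines at the 6 genes, red for listed as higher and blue for listed as lower; the height of a line has no meaning. IL1B (9.84), CCL3 (9.62) and CXCL1 (7.08) lie in the sparse right tail, and CXCL10 (1.23) lies below the median of 1.60.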

How the data were processed

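K562 RNA was sequenced from 2 scramble and 2 HMRHL siRNA libraries made with a stranded kit, per the labels' protocols. The submitters' processing notes name, with no order or settings, the tools Cuffdiff, Cufflinks, TopHat, Bowtie2, SAMtools 1.3.1 and Trim Galore 0.4.4 and the builds GRCh38 and hg38. The deposited table holds a symbol and 1 fold change per row, only for genes the authors selected by a threshold that no source used here states. These deposited values were taken to be log2. The column has both signs and no value has more than 6 significant digits, as in Cuffdiff output, but neither feature decides the scale. The listed values nearest to 0 were 1.50 and -1.15, which either scale allows. The column does not state its scale, and a signed linear fold change is another possible reading, at which 4-fold counts fall (closing section). Its direction is not stated either. Depth and replicate error are unknown, so no test, interval or enrichment was made.

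Symbols were counted once and matched to GENCODE release 29 (740 of 742). Copies were sought with BLAST 2.17.0 on the principal transcript of each gene against all annotated transcripts (near-identical from 95% identity over 50% of its length), and promoters, matched for all 6 genes, came from RefSeq tables (for CCL3 the most upstream of 3 starts). Pattern searches were tested on simulated sequences. 3′ UTRs are those of principal transcripts. The 6 genes, the gene lists and the choice of tests were made with earlier results of these data known. The genes named are the 6, the listed genes of these lists, the genes of their clusters and the next genes in value. Some genes that this rule takes in are not reported here, and list counts cover only the genes kept. The partner genes, the NF-kappaB and GATA patterns and the AU-rich pentamers were added after values or sequences were seen. Alternatives were a 4-fold minimum, an equal minimum in both directions, counting rows, translating older symbols, a linear scale, a turned direction and leaving out members. Python 3.11.15, numpy 2.4.6, pandas 2.3.3 and matplotlib 3.10.9 were used.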

Additional observations from a re-analysis of the deposited data

How the results depend on the processing

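The higher members numbered 3 in each setting run for them, and the 3 lower became 2 at a 4-fold minimum, which leaves out CCL3, and stayed 3 at an equal minimum in both directions. Counting every row gave 5 lower rows, because CCL3 fills 3. Leaving out CXCL10 and CCL3, which overlap a gene on the opposite strand, left 1 lower member, IL1B (added after seeing the data). In the wider lists the 5 higher and 12 lower genes became 4 and 3 at a 4-fold minimum. An equal minimum of 1.50 left 7 lower, and leaving out the 6 members (added after seeing the data) left 2 higher and 9 lower. Translating older symbols gave 5 and 12 again. Read as signed linear folds, the values would be -1.99 (IL1B), 1.96 (PPBP), 1.91 (CCR4), 1.24 (CXCL1), -1.19 (CXCL10) and -0.78 (CCL3) on the log2 scale, in the same order, and 0 of the 6 genes in place of 5, and 2.29% of all listed symbols in place of 39.6%, would be at least 4-fold. With the direction read as scramble over knockdown, the members would again be 3 and 3, with the genes of the directions exchanged, the wider lists 12 higher and 5 lower, and 30.6% of listed symbols lower (both readings of these counts added after seeing the data). No paired analysis was possible because the table has 1 value per gene and none per library, and for the same reason leaving out replicates was not run.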
